A study of Rattus norvegicus with 8 samples.

Results

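The secreted Wnt inhibitors Wif1, Sfrp1, Sfrp4, Frzb and Dkk3 were followed across 4 zones of the rat femur growth plate, the cartilage layer in which long bones lengthen. The members were taken by name from the platform annotation, as every probe set mapped to exactly 1 of these genes. This gave 12 probe sets out of 31099 deposited ones, with 1 for Wif1, 3 for Sfrp1, 2 for Sfrp4, 2 for Frzb and 4 for Dkk3. All 12 were analysed, and none was removed by a filter.

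Wnt proteins are secreted signals that bind Frizzled receptors together with the co-receptors Lrp5 and Lrp6, which stabilises beta-catenin and turns on target genes through Tcf and Lef factors. Secreted inhibitors hold this signal back outside the cell. Wif1 binds Wnt proteins directly. Sfrp1, Sfrp4 and Frzb, also called secreted frizzled-related protein 3, carry a domain like the Wnt-binding part of the Frizzled receptors and so compete for Wnt. Dkk3 belongs to the Dickkopf family, whose best known member, Dkk1, blocks the co-receptors, whereas the action of Dkk3 on Wnt signalling is less settled. In cartilage, Wnt signals are known for promoting chondrocyte hypertrophy and, in the surrounding perichondrium, bone formation, and Frzb is known as a product of cartilage.

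The perichondral zone (the rim of the plate), the reserve zone (resting chondrocytes), the proliferative zone (dividing, stacked chondrocytes) and the hypertrophic zone (enlarged chondrocytes next to bone) each had 1 array at 46 days of age and 1 at 42 days, 8 arrays in all. Each array received biotin-labelled material prepared from RNA pooled from 3 rats. The sources used here do not give strain, sex, how zones were separated or whether rats contributed to several pools. With n = 2 pools per zone, 1 per age, p-values measure a spread that includes the age difference. The labels name no treatment.

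Values are log2(intensity + 16) after quantile normalization, and differences on this scale understate those of dim genes. The pair of values given for a zone is that of its 46-day and its 42-day array. The median of all values was 8.25. As a yardstick for weak signal, the 0.95 quantile of 32 genes typical of other organs lay at 9.26, called the other-organ level here; it is no detection call. In bulk RNA, fewer cells of a type and less RNA per cell cannot be told apart.

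The zone labels were set against marker genes. Col2a1, the main collagen of cartilage, lay between 15.86 and 17.80 in every array. Col10a1, the collagen of hypertrophic chondrocytes, was at 15.26 and 16.93 in hypertrophic arrays and between 10.88 and 13.78 elsewhere. Of 9 measured hypertrophic markers, 8 were lower in perichondral, 5 in reserve and 6 in proliferative than in hypertrophic arrays. The rest were higher, and the median differences were -1.06, -0.21 and -0.36. Postn, a matrix protein of fibrous tissue, was at 10.12 and 11.48 in perichondral arrays and between 5.44 and 8.70 elsewhere, but fibrous markers as a list did not set perichondral apart from reserve arrays, as given with Sfrp1. Col1a1, the main collagen of fibrous tissue and bone, was at 13.03 and 15.41 in perichondral arrays, 15.66 and 15.80 in reserve, 9.24 and 10.12 in proliferative and 11.33 and 16.09 in hypertrophic arrays. The reserve arrays also carried bone and marrow genes, with the neutrophil protein S100a9 at 13.56 and 13.34, against values between 5.44 and 10.13 elsewhere. The collagenase Mmp13 was at 14.73 and 14.75 in reserve and at 14.09 and 14.73 in hypertrophic arrays. The summed intensity of 10 bone markers was 109331 and 199667 in reserve and 12559 and 191823 in hypertrophic arrays, and that of 11 marrow markers 41623 and 45596 in reserve and 1956 and 23444 in hypertrophic arrays. The ratio of 3' to 5' signal of Gapdh control probes, used to judge RNA integrity, ranged from 3.63 in the 46-day hypertrophic array to 8.15 in the 42-day reserve array. The same ratio for beta-actin ranged from 0.56 in the 46-day perichondral array to 4.65 in the 42-day reserve array. It ordered the arrays otherwise, with 4.59 in the 46-day hypertrophic array.

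No member probe set passed the threshold in any comparison (limma, adjusted p below 0.05 over 31042 probe sets), and the lowest adjusted p was 0.306, for Sfrp1 between perichondral and hypertrophic arrays. The share of all probe sets called was 0% for perichondral against reserve, 0% for perichondral against proliferative, 0.029% for perichondral against hypertrophic, 0.0226% for reserve against proliferative and for reserve against hypertrophic, 0.0129% for proliferative against hypertrophic and 0% for 46 against 42 days. At an unadjusted p below 0.05, member probe sets numbered 1, 3, 3, 1, 1, 1 and 3 of 12 in these comparisons, in the same order, where the shares of all probe sets were 3.75%, 5%, 6.17%, 7.64%, 8.1%, 5.52% and 8.43%. The differences below are therefore sizes with their errors, not calls. Each is given for the brightest probe set of its gene unless another is named.

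The brightest probe sets of all 5 genes averaged higher in perichondral than in reserve, proliferative and hypertrophic arrays. The median difference of the 5 genes was 0.79 for perichondral minus reserve, where the median over 14217 genes was -0.05. It was 1.96 for perichondral minus proliferative (0.02 over all genes) and 2.36 for perichondral minus hypertrophic (0.02 over all genes). For reserve minus hypertrophic it was 0.95 (0.07 over all genes), with all 5 genes positive, and for reserve minus proliferative 1.46 (0.06), with 4 positive. These comparisons share arrays, so the perichondral ones are not independent of each other. Against reserve, the differences of Wif1 (0.04) and Dkk3 (0.13) were small beside their errors. Wif1, Frzb and Dkk3 also differed in sign between the ages in that comparison, so not all genes shared a direction against reserve. The size for Frzb against reserve rested on the age, as given with that gene.

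**Figure D1:**
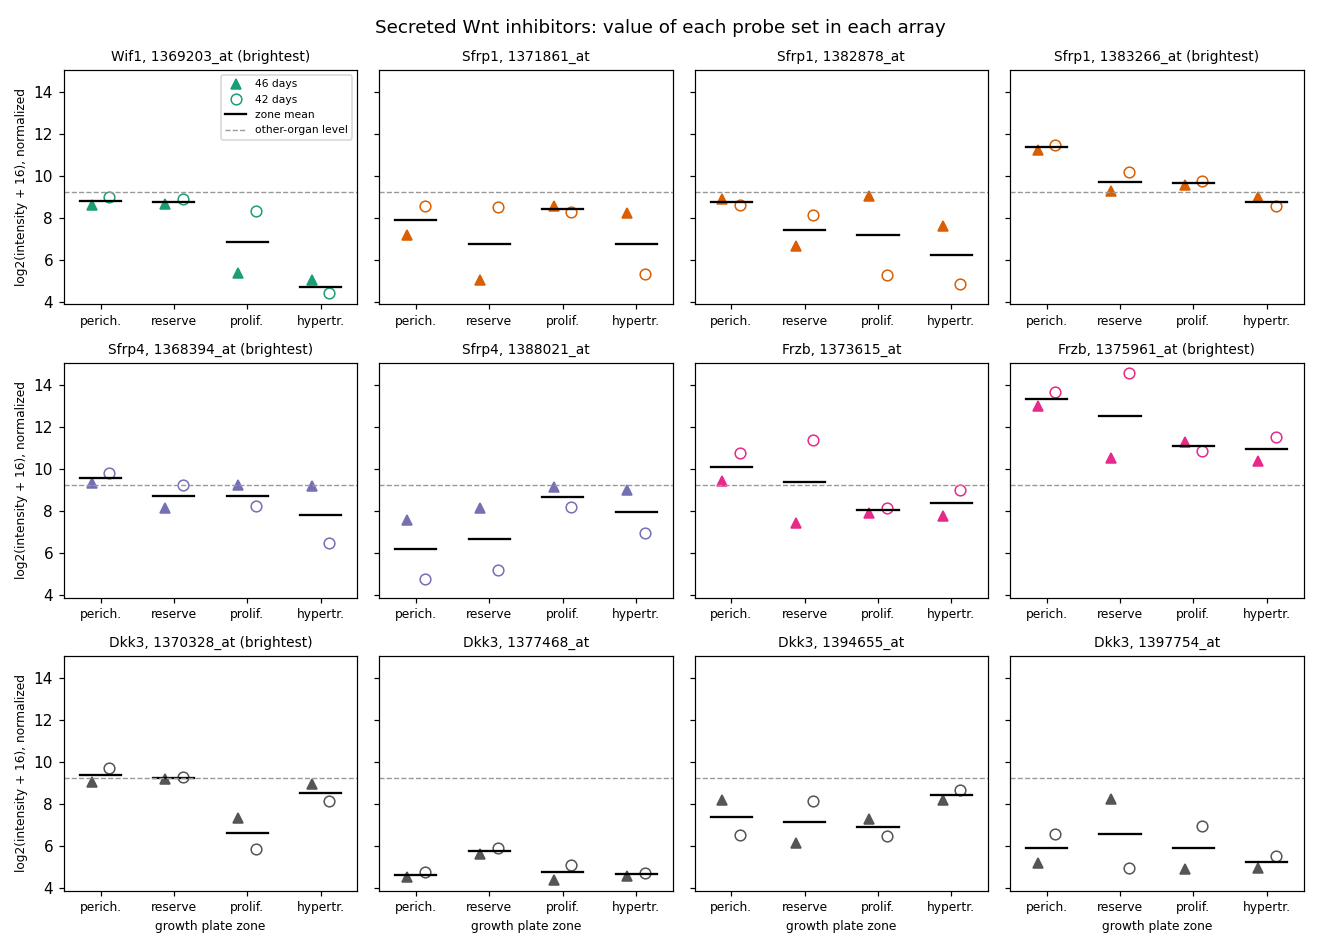
Normalized log2(intensity + 16) of the 12 member probe sets in each of the 4 zones, with triangles for the 46-day arrays, open circles for the 42-day arrays, black bars for the mean of the 2 arrays and a dashed line at the other-organ level of 9.26. Sfrp1 probe set 1383266_at sits above 11 in both perichondral arrays and below that in all others, and Wif1 is at 5.03 and 4.44 in hypertrophic arrays.

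Sfrp1 was the member whose perichondral arrays stood clearest of the rest. Probe set 1383266_at was at 11.26 at 46 days and 11.49 at 42 days in perichondral arrays, 9.27 and 10.19 in reserve, 9.60 and 9.76 in proliferative and 8.99 and 8.58 in hypertrophic arrays. Both perichondral arrays thus lay above the other 6, as 2 of the 12 member probe sets did, against 2.7% of all probe sets. Both hypertrophic arrays lay below the other 6, which also held for 2 member probe sets, against 3.93% of all.

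The deposited intensities behind these values were 2367 and 3069 in perichondral arrays, 593 and 1229 in reserve, 801 and 822 in proliferative and 532 and 365 in hypertrophic arrays. The zone order was perichondral (11.38 ± 0.17, SD, n = 2), reserve (9.73 ± 0.65), proliferative (9.68 ± 0.12) and hypertrophic (8.79 ± 0.29). The difference was 1.65 (SE 0.61) for perichondral minus reserve, 1.70 (SE 0.61) for perichondral minus proliferative and 2.59 (SE 0.61) for perichondral minus hypertrophic, a 6.02-fold difference. The unadjusted p was 0.0157, 0.0131 and 0.000582 in limma's model, and the adjusted p 1, 0.963 and 0.306. Reserve and proliferative arrays, the neighbours in the middle, differed by 0.05 with a 95% interval from -1.24 to 1.35.

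Perichondral values of Sfrp1 were higher than those of the other zones at both ages. The difference was 1.99 at 46 days and 1.30 at 42 days against reserve, 1.66 and 1.74 against proliferative, and 2.27 and 2.91 against hypertrophic arrays. With each array left out in turn, the difference between perichondral and hypertrophic arrays stayed positive. The other Sfrp1 probe sets were dimmer and did not show this order throughout. Probe set 1382878_at was at 8.90 and 8.64 in perichondral, 6.69 and 8.16 in reserve, 9.07 and 5.31 in proliferative and 7.60 and 4.87 in hypertrophic arrays. Here the 46-day proliferative array was the highest of all. Probe set 1371861_at was at 7.21 and 8.59 in perichondral, 5.03 and 8.54 in reserve, 8.59 and 8.27 in proliferative and 8.22 and 5.36 in hypertrophic arrays, and its zones overlapped except for proliferative above hypertrophic. None of these values of the dimmer probe sets reached the other-organ level.

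Fibrous tissue genes were in part higher where Sfrp1 was. Of 25 measured markers of fibrous perichondrium and periosteum, 19 had higher perichondral than proliferative means (median difference 1.28), 17 were higher than in hypertrophic arrays (median 0.70), and 12 were higher than in reserve arrays (median -0.13). Their summed deposited intensity was 89474 and 201839 in perichondral, 169045 and 192414 in reserve, 15111 and 30688 in proliferative and 20760 and 254824 in hypertrophic arrays. At 46 days this sum was lower in the perichondral than in the reserve array, while Sfrp1 was higher there. The part of fibrous tissue in the Sfrp1 values was not tested.

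Sfrp4, a frizzled-related protein known in bone for its mutation in a human bone disorder, had a shallower order. Probe set 1368394_at was at 9.33 and 9.84 in perichondral arrays, 8.17 and 9.22 in reserve, 9.25 and 8.23 in proliferative and 9.18 and 6.47 in hypertrophic arrays. Both perichondral arrays lay above the other 6, but the 46-day perichondral array did so by a small step, and the proliferative and hypertrophic arrays of that age were close behind it. The zone means were 9.58 ± 0.36 for the perichondral, 8.70 ± 0.74 for the reserve, 8.74 ± 0.72 for the proliferative and 7.82 ± 1.92 for the hypertrophic zone (SD, n = 2). Reserve and proliferative arrays, neighbours in this order, differed by -0.04 with a 95% interval from -2.01 to 1.93. Perichondral minus hypertrophic was 1.76 (SE 0.93, adjusted p = 0.832 with limma), made up of 0.15 at 46 days and 3.37 at 42 days. It was 3.12 without the 46-day hypertrophic array and 0.40 without the 42-day one.

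The second Sfrp4 probe set, 1388021_at, ran the other way. It was at 7.60 and 4.79 in perichondral arrays, 8.14 and 5.21 in reserve, 9.13 and 8.21 in proliferative and 8.99 and 6.96 in hypertrophic arrays. Both proliferative arrays were above both perichondral and both reserve arrays. It was higher at 46 than at 42 days in all 4 zones, by 2.17 on average (SE 0.82, unadjusted p = 0.0161, adjusted p = 0.51 with limma). Across the 8 arrays the Pearson r between the Sfrp4 probe sets was -0.17, so the annotation's single gene name covers a pair of unlike patterns. All values of 1388021_at lay below the other-organ level.

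The brightest Frzb probe set lay above the other-organ level in all 8 arrays, and the age difference of Frzb in the reserve zone was the widest step of any member. Probe set 1375961_at was at 13.00 and 13.65 in perichondral arrays, 10.52 and 14.55 in reserve, 11.29 and 10.87 in proliferative and 10.37 and 11.55 in hypertrophic arrays. The 42-day reserve array held the highest value of all, while the 46-day reserve array lay below both proliferative arrays. The deposited intensities were 7947 and 16992 in perichondral, 1445 and 30914 in reserve, 2085 and 1949 in proliferative and 1280 and 3128 in hypertrophic arrays.

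The second Frzb probe set, 1373615_at, gave the same picture at a lower level, with a Pearson r of 0.97 across the 8 arrays. It was at 9.42 and 10.76 in perichondral arrays, 7.42 and 11.38 in reserve, 7.93 and 8.16 in proliferative and 7.75 and 9.02 in hypertrophic arrays. The reserve arrays differed by -4.04 (46 minus 42 days) for 1375961_at and by -3.95 for 1373615_at. Only 0.277% and 0.325% of all probe sets had a difference as low or lower in that zone. Each of these steps compares a single array with another single array, and the Gapdh 3' to 5' ratio of those arrays also differed, at 3.96 at 46 days and 8.15 at 42 days.

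Perichondral Frzb lay above proliferative and hypertrophic arrays at both ages, by 1.71 at 46 days and 2.78 at 42 days and by 2.63 and 2.10. The pooled difference was 2.25 (SE 0.90, adjusted p = 0.963 with limma) for perichondral minus proliferative and 2.36 (SE 0.90, adjusted p = 0.759) for perichondral minus hypertrophic. The Gapdh ratio as a covariate, added after seeing the data, gave 4.18 for perichondral minus proliferative (adjusted p = 0.178 with limma). With this covariate perichondral minus reserve was 2.33 and proliferative minus hypertrophic -2.01, against 0.79 and 0.12 without it. Against reserve, the perichondral difference was 2.48 at 46 days and -0.90 at 42 days, so its mean of 0.79 (SE 0.90) has no single direction, and without the 46-day reserve array it was -1.23. The zone order was perichondral (13.32 ± 0.46, SD, n = 2), reserve (12.54 ± 2.85), proliferative (11.08 ± 0.30) and hypertrophic (10.96 ± 0.83). Proliferative and hypertrophic arrays, the lower neighbours, differed by 0.12 with a 95% interval from -1.79 to 2.03.

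Frzb averaged 11.30 at 46 days and 12.65 at 42 days, a difference of -1.36 (SE 0.50, unadjusted p = 0.014, adjusted p = 0.498 with limma). Leaving out the reserve array of 46 days gave -0.46, leaving out that of 42 days gave -0.47, and the Gapdh ratio as a covariate gave 0.70. Frzb was lower at 46 days in perichondral (-0.65), reserve (-4.04) and hypertrophic (-1.18) arrays and higher in proliferative arrays (0.42). Chondrocyte markers were lower at 46 days as well, 12 of 12 measured, with a median difference of -0.99 and 0 past the threshold. Their summed intensity was 333544 at 46 days and 508603 at 42 days in perichondral, 244888 and 494085 in reserve, 222828 and 515382 in proliferative and 73511 and 289734 in hypertrophic arrays. What share of the Frzb difference goes with them was not tested.

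The start regions of Frzb and Wif1 are shown because Frzb had the widest step between ages of any member and Wif1 the widest difference between zone means. They run from 250 bases before to 50 bases after the start site, from RefSeq on build GRCr8. Capitals mark CTTTGA or CTTTGT, the core letters of the known Tcf and Lef motif, searched on both strands. No other motif was searched. The Frzb region lies at chr3:85772047-85772346 on the minus strand and the Wif1 region at chr7:58433329-58433628 on the plus strand.
Frzb: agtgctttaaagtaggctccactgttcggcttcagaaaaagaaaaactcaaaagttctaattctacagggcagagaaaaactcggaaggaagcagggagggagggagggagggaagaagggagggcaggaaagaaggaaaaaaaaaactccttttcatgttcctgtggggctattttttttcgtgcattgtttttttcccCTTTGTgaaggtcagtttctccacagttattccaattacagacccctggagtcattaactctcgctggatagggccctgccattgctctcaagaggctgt
Wif1: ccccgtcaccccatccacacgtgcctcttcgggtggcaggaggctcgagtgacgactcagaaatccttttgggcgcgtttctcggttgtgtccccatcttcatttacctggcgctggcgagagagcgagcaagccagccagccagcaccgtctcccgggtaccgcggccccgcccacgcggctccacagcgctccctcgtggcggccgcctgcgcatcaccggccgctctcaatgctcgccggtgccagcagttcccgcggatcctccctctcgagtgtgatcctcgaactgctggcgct
Frzb had 1 match, a CTTTGT on the printed strand, and Wif1 had 0. Of 33469 such regions in the rat, 31.4% held at least 1 of these letter runs, so a match is common, and its absence says only that the letters are not in this window. The G and C content was 45.3% in Frzb and 67% in Wif1. The other members had no entry in that set of regions.

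Wif1 had nearly equal values in perichondral and reserve cartilage and was lowest in hypertrophic cartilage. Probe set 1369203_at, its only one, was at 8.61 and 9.01 in perichondral arrays, 8.65 and 8.90 in reserve, 5.38 and 8.33 in proliferative and 5.03 and 4.44 in hypertrophic arrays. The hypertrophic arrays lay below the other 6, with deposited intensities of 21 and 6 against 398 and 481 in perichondral arrays. The proliferative arrays were split, with the 42-day array near the reserve values and the 46-day array near the hypertrophic ones. All 8 values were below the other-organ level, so these sizes rest on dim signal.

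The Wif1 means were 8.81 ± 0.28 for the perichondral, 8.77 ± 0.18 for the reserve, 6.86 ± 2.09 for the proliferative and 4.74 ± 0.42 for the hypertrophic zone (SD, n = 2). Perichondral minus reserve was 0.04 with a 95% interval from -2.53 to 2.61, which leaves room for a difference in either direction. Perichondral minus hypertrophic was 4.08 (SE 1.22, unadjusted p = 0.00388, adjusted p = 0.643 with limma) and reserve minus hypertrophic was 4.04 (SE 1.22, unadjusted p = 0.00417, adjusted p = 0.436). At 46 and 42 days these were 3.58 and 4.58 for perichondral and 3.61 and 4.46 for reserve arrays. Reserve minus proliferative was 3.27 at 46 days and 0.56 at 42 days. Since the hypertrophic intensities were near the pseudocount of 16, the size depended on it. With a pseudocount of 1 perichondral minus hypertrophic was 5.34 and reserve minus hypertrophic 5.30, and with 64 they were 2.73 and 2.69.

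Chondrocyte markers were lower in hypertrophic cartilage as well, as were the means of Wif1 and of the brightest probe sets of Sfrp1 and Sfrp4. Frzb was lower there than in perichondral arrays but close to proliferative ones. Its proliferative minus hypertrophic difference was 0.12 for 1375961_at and -0.34 for 1373615_at. All 12 measured markers were higher in perichondral, reserve and proliferative than in hypertrophic arrays, with medians of 1.10, 1.35 and 1.22, and 0 passed the threshold. Their part in the hypertrophic values of these members was not tested.

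**Figure D2:**
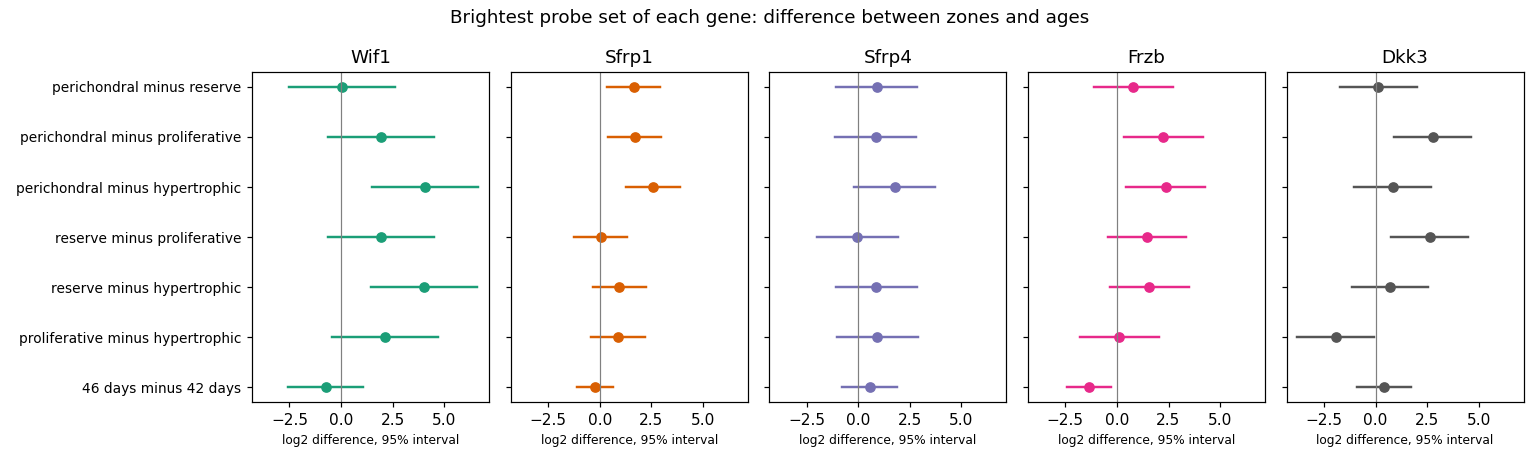
Log2 difference between zones and between ages for the brightest probe set of each gene, with the point at the estimate of limma's model and the line at its 95% interval before any adjustment for the number of probe sets. For Sfrp1 the 3 perichondral contrasts lie to the right of 0, while for Sfrp4 every interval crosses 0.

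Among the brightest probe sets, that of Dkk3 was the one with its lowest mean in proliferative cartilage, as also held for the second Frzb probe set (8.04 in proliferative and 8.39 in hypertrophic arrays). Probe set 1370328_at was at 9.04 and 9.73 in perichondral arrays, 9.21 and 9.29 in reserve, 7.37 and 5.88 in proliferative and 8.98 and 8.14 in hypertrophic arrays. Both proliferative arrays lay below the other 6, as 1 member probe set did, against 3.53% of all probe sets. The means were 9.39 ± 0.48 for the perichondral, 9.25 ± 0.06 for the reserve, 6.63 ± 1.05 for the proliferative and 8.56 ± 0.60 for the hypertrophic zone (SD, n = 2).

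Perichondral minus proliferative was 2.76 for Dkk3 (SE 0.88, 6.77-fold, unadjusted p = 0.00609, adjusted p = 0.963 with limma), with 1.67 at 46 days and 3.84 at 42 days. Reserve minus proliferative was 2.62 (SE 0.88, 6.17-fold, adjusted p = 0.51), with 1.84 and 3.41. Proliferative minus hypertrophic was -1.93 (SE 0.88, adjusted p = 0.897), with -1.61 and -2.25, and -1.19 without the 42-day proliferative array. Perichondral and reserve arrays, the upper neighbours, differed by 0.13 with a 95% interval from -1.72 to 1.99.

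The other Dkk3 probe sets did not reach the other-organ level in any array and shared this pattern only in part. Probe set 1377468_at was at 4.53 and 4.77 in perichondral, 5.62 and 5.90 in reserve, 4.40 and 5.11 in proliferative and 4.61 and 4.72 in hypertrophic arrays. Its reserve arrays were the highest of the 8, as held for 1 member probe set, against 4.24% of all. Probe set 1394655_at also had its lowest mean in proliferative arrays, at 7.38 for the perichondral, 7.13 for the reserve, 6.90 for the proliferative and 8.44 for the hypertrophic zone, and its proliferative arrays lay wholly below the hypertrophic ones. It ran between 6.14 and 8.67 and 1397754_at between 4.90 and 8.25, the first with its highest value in the 42-day hypertrophic array and the second in the 46-day reserve array. Between 1394655_at and 1397754_at the Pearson r across the 8 arrays was -0.83.

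The fibrous markers were lower in proliferative arrays too, as given with Sfrp1, and for perichondral minus proliferative 7 of 8 osteoclast markers were higher (median difference 1.19), 6 of 10 bone markers (0.32) and 5 of 11 marrow markers (-0.07). For reserve minus proliferative, 9 of 10 bone markers were higher (median 1.92), 8 of 8 osteoclast markers (3.53), 10 of 11 marrow markers (2.43) and 17 of 25 fibrous markers (1.17). Their part in the Dkk3 values was not tested.

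Counted over all 12 probe sets, arrays of a pair of zones that did not overlap were most often higher on the perichondral side. Against reserve arrays the counts were near the shares of all probe sets. Perichondral arrays lay wholly above hypertrophic ones for 7 of 12 probe sets (16.7% of all probe sets) and wholly below for 0 (18.2%). They lay above proliferative ones for 6 (16.3%) and below for 1 (17.9%), and above reserve ones for 3 (18.6%) and below for 1 (16.1%). Reserve arrays lay above hypertrophic ones for 4 (17.7%) and below for 1 (21.3%), and above proliferative ones for 3 (18%) and below for 1 (21.7%). Proliferative arrays lay above hypertrophic ones for 3 (15.7%) and below for 2 (15.8%). Both perichondral arrays lay below the other 6 for 0 members (3.17% of all probe sets), both reserve arrays for 0 (4.82%), and both proliferative or both hypertrophic arrays lay above the other 6 for 0 (4.41% and 4.67%). Between ages, the 46-day arrays lay wholly above the 42-day arrays for 0 members (1.98%) and wholly below for 0 (1.45%). Probe sets of 1 gene share their transcript, so these counts are over fewer than 12 separate measurements.

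**Figure D3:**
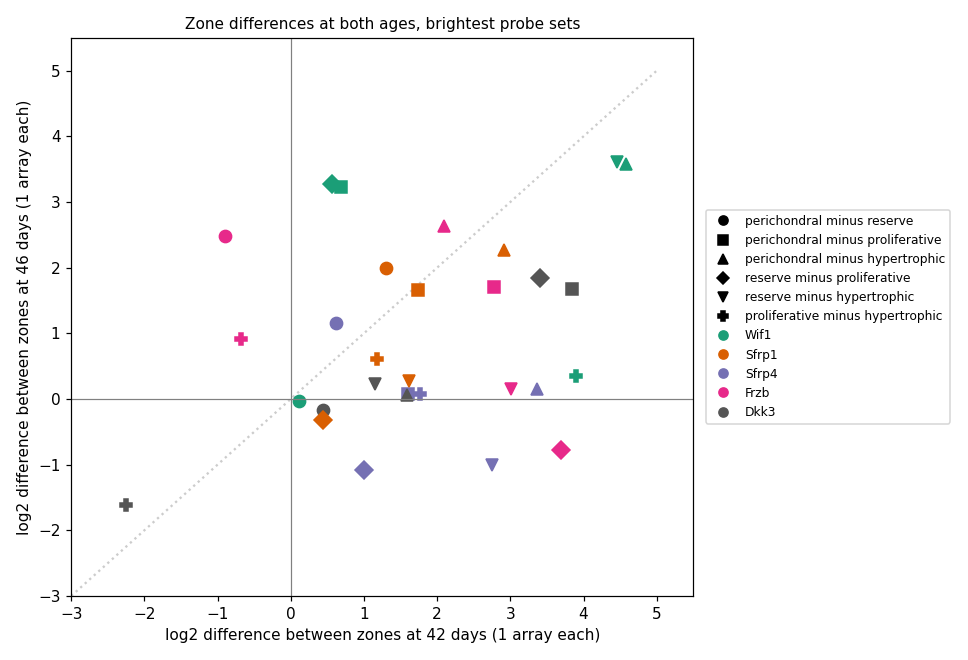
Difference between zones at 42 days (horizontal axis) and at 46 days (vertical axis) on the log2 scale for the brightest probe set of each gene, with 1 array per zone and age, colours for genes and symbols for the zones compared. The dotted line marks equal differences. Wif1 in perichondral minus hypertrophic and in reserve minus hypertrophic lies far from 0 on both axes. In proliferative minus hypertrophic Wif1 lies at 0.34 at 46 days and 3.89 at 42 days. Frzb in perichondral minus reserve lies at 2.48 at 46 days and -0.90 at 42 days.

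The other genes of the pathway gave no called difference either. Of 101 listed Wnt genes 79 were measured, and 0 passed the threshold with limma in any zone comparison or between ages. At an unadjusted p below 0.05, 8 stood higher and 1 lower for perichondral against hypertrophic arrays (6.17% of all probe sets in either direction), 5 higher and 4 lower for reserve against hypertrophic (8.1%), 4 higher and 1 lower for reserve against proliferative (7.64%) and 4 higher and 0 lower for proliferative against hypertrophic arrays (5.52%). The count was 1 higher and 1 lower for perichondral against reserve (3.75%), 2 higher and 0 lower for perichondral against proliferative (5%) and 2 higher and 3 lower for 46 against 42 days (8.43%). Of 10 measured Wnt inhibitors outside the members, 3 had a higher and 7 a lower mean in perichondral than in hypertrophic arrays (median difference -0.43). None of the 10 had an unadjusted p below 0.05 with limma in that comparison. The median lay on the other side of 0 from that of the 5 members. Members and lists were chosen with earlier results of these data known, so this contrast is a description. Among these 10 inhibitors Sostdc1, an antagonist of both BMP and Wnt signals, was at 8.04 and 9.18 in perichondral, 7.26 and 7.24 in reserve, 9.42 and 8.21 in proliferative and 9.97 and 9.51 in hypertrophic arrays. Reserve minus hypertrophic was -2.48 (SE 0.84, adjusted p = 0.497 with limma).

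Wnt ligands and their export genes were balanced between perichondral and hypertrophic arrays, with 8 of 15 higher and a median of 0.04. Perichondral minus reserve had 11 of 15 higher (median 0.69, against -0.05 over all genes). Reserve minus proliferative had 13 of 15 lower (median -0.72, against 0.06), and perichondral minus proliferative 7 higher and 8 lower (median -0.06). Wnt5a, a ligand of the beta-catenin-independent branch, was at 10.48 and 9.97 in perichondral, 10.25 and 9.47 in reserve, 10.40 and 10.76 in proliferative and 10.17 and 10.79 in hypertrophic arrays. Its reserve minus proliferative difference was -0.72 (SE 0.59, adjusted p = 0.799 with limma).

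Of 11 measured receptors and co-receptors, 5 had a higher and 6 a lower mean in perichondral than in hypertrophic arrays (median -0.03). Fzd8 was at 9.01 and 10.05 in perichondral, 9.38 and 9.46 in reserve, 7.94 and 8.65 in proliferative and 7.31 and 5.48 in hypertrophic arrays, a perichondral minus hypertrophic difference of 3.14 (SE 0.91, adjusted p = 0.62). Fzd1 had a reserve minus proliferative difference of -1.69 (SE 0.87, adjusted p = 0.689), and Fzd5 a perichondral minus hypertrophic difference of -0.78 (SE 0.91, adjusted p = 0.924). In the R-spondin arm, which strengthens Wnt signals at the receptor, 6 genes were measured, 5 of them higher in perichondral than in hypertrophic arrays (median 0.16). Lgr5, an R-spondin receptor, was at 9.49 and 9.96 in reserve and 7.58 and 8.08 in proliferative arrays (1.90, SE 0.81, adjusted p = 0.624), and Rspo3 at 7.56 and 8.73 in reserve and 10.05 and 8.84 in hypertrophic arrays, a pair whose reserve minus hypertrophic difference was -1.30 (SE 0.77, adjusted p = 0.702).

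Signal transduction genes showed no common direction, with 10 of 21 higher and 11 lower for perichondral against hypertrophic arrays (median -0.02). Prickle1, a protein of the planar polarity branch, was at 12.13 and 12.96 in perichondral, 11.68 and 13.97 in reserve, 10.56 and 11.72 in proliferative and 8.67 and 10.04 in hypertrophic arrays. Its reserve minus hypertrophic difference was 3.47 (SE 0.73, adjusted p = 0.216 with limma). With age as a replicate block, the difference between reserve and hypertrophic arrays passed the threshold (adjusted p = 0.00403), as did that between perichondral and hypertrophic arrays (3.19, adjusted p = 0.00995, against 0.29 without the block). Without the 42-day hypertrophic array it also passed against reserve (4.15, adjusted p = 0.0431). Between ages Prickle1 differed by -1.41 (adjusted p = 0.244), or by -1.87 (adjusted p = 0.0269) with arrays centred on their medians. Ctnnb1, which encodes beta-catenin, had a reserve minus proliferative difference of 1.20 (SE 0.94, adjusted p = 0.793), and between proliferative and hypertrophic arrays its inhibitor Ctnnbip1 differed by 1.16 (SE 0.62) and the kinase Csnk1a1 by -1.14 (SE 0.55), with adjusted p of 0.912 and 0.899.

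Wnt target genes were higher in perichondral than in hypertrophic arrays for 12 of 16 measured, with a median of 0.54 (0.02 over all genes). Against hypertrophic arrays, 11 of 16 were also higher in proliferative (median 0.71) and 9 of 16 in reserve arrays (median 0.47). Target genes were lower for 11 of 16 in reserve minus proliferative (median -0.69, against 0.06 over all genes). In perichondral minus proliferative, 9 of 16 were lower (median -0.20, against 0.02). Tcf7, a transcription factor of the pathway that is itself a target, was at 11.77 and 12.34 in perichondral, 10.53 and 11.71 in reserve, 11.04 and 11.32 in proliferative and 10.06 and 8.61 in hypertrophic arrays. Perichondral minus hypertrophic was 2.72 (SE 0.62, adjusted p = 0.29 with limma). Ccn2 is a matricellular growth factor with other inputs besides Wnt. It was at 16.02 and 15.58 in perichondral, 15.01 and 15.69 in reserve, 13.62 and 15.63 in proliferative and 13.06 and 13.22 in hypertrophic arrays. Its perichondral minus hypertrophic difference was 2.66 (SE 0.80, adjusted p = 0.643 with limma). Tnfrsf11b encodes the decoy receptor osteoprotegerin. It was at 10.70 and 10.81 in perichondral, 9.90 and 10.09 in reserve, 10.34 and 11.03 in proliferative and 9.07 and 9.31 in hypertrophic arrays. Its perichondral minus hypertrophic difference was 1.57 (SE 0.58, adjusted p = 0.731 with limma), and its proliferative arrays were level with the perichondral ones. The gap junction gene Gja1 had a reserve minus proliferative difference of 1.82 (SE 0.88, adjusted p = 0.664). The brightest probe sets of the 5 inhibitors and Tcf7, Ccn2 and Tnfrsf11b were all higher in perichondral than in hypertrophic arrays, and none of them passed the test. Of the dimmer member probe sets, Sfrp4 1388021_at (-1.78), Dkk3 1394655_at (-1.06) and Dkk3 1377468_at (-0.01) went the other way, and the rest did not. Tcf7, Ccn2 and Tnfrsf11b were named for wide differences, and 4 of the 16 targets were lower.

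**Figure D4:**
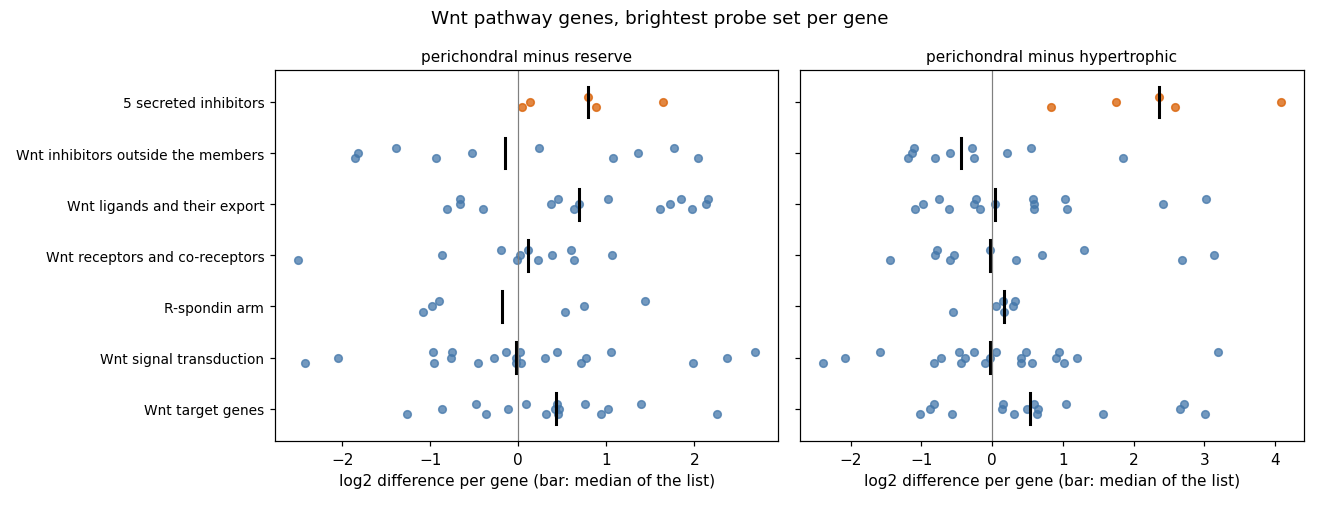
Log2 difference of each gene's brightest probe set for perichondral minus reserve (left) and perichondral minus hypertrophic (right), with the 5 secreted inhibitors in orange, the genes of 6 other Wnt lists in blue and a black bar at each list's median. On the right all 5 inhibitors lie above 0 with a median of 2.36, and the medians of the other lists lie between -0.43 and 0.54. Members and lists were chosen with earlier results of these data known.

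The genes whose values ran most like those of each member were ranked by Pearson r over the 8 arrays among 10125 genes. They are given as a description. Closest to Wif1 were Cactin (r = 0.99), Lnx1 (0.98) and Osbpl2 (0.98). Closest to Sfrp1 were Usp46 (0.95), Tgfb2, a growth factor of the TGF-beta family (0.94), and Nkiras1 (0.92). Closest to Frzb were Fignl1 (0.96), Penk, the enkephalin precursor (0.95), and Itgbl1, an integrin-like secreted protein (0.93). Lrrc23 (0.97), Akap10 (0.96) and Lamtor5 (0.95) ran closest to Sfrp4, and Syngr1, Igsf3 and Pdpn, also called podoplanin (0.96 each), closest to Dkk3. Among the members themselves r ran from 0.25 for Wif1 with Dkk3 to 0.73 for Wif1 with Sfrp1.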

How the data were processed

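RNA of 4 growth plate zones was measured on 8 rat arrays, and the deposited values are linear intensities for 31099 probe sets. MAS5, GCOS and RMA are named per the submitters' processing notes, with no version or role, and the extract and label protocols of the labels name RNeasy and Ovation. The 0.02 trimmed mean of the deposited intensities was 500.1 or 500.2 in every array. From them, 57 controls were removed, and 31042 probe sets were taken as log2(intensity + 16) and quantile normalized, since the array medians of the deposited values differed by 0.59 on that scale (limit 0.1). Array number limits the precision. Across all probe sets, r between the arrays of a zone was 0.691 for perichondral and 0.724 for reserve arrays. It was 0.633 for proliferative and 0.606 for hypertrophic arrays. Between arrays of different zones r ran from 0.571 to 0.727. By this measure, arrays of the same zone were not set apart from arrays of different zones. The reason was not tested.

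Gene names came from the platform annotation, updated through gene identifiers (20764 matched). Of the probe sets, 20826 had 1 gene symbol, 436 several and 9780 none. Lists used the brightest probe set of a gene.

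A model of zone means over the 8 arrays was estimated using limma 3.58.1 in R 4.3.3 (eBayes with trend, 4 residual and 12.6 prior degrees of freedom), p-values were adjusted by Benjamini-Hochberg across the 31042, and age was tested with zone as covariate. The fit was tested on simulated data. Members, lists and naming rules were chosen with earlier results of these data known. Named were all member probe sets, the 3 genes most like each member, and per Wnt list up to 4 genes with the widest zone difference whose arrays did not overlap and whose higher zone mean passed the other-organ level, plus any called. Of the listed Wnt genes, those not named are given as counts.

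Alternatives covered normalization, pseudocount, a filter on dim probe sets, age as a replicate block, arrays of the compared zones alone, eBayes without trend and each array left out. A covariate for the Gapdh 3' to 5' ratio was added after seeing the data, and none was fitted for the beta-actin ratio. The labels give each zone the same ages, but not the same animals. The ages were not treated as pairs in the main model. The difference between 46 and 42 days correlated between zones with r from 0.0225 to 0.0806 across probe sets. These values cover all probe sets, dim ones included, and do not show that the pools of an age were unrelated. With age as a replicate block, more probe sets were called in each zone comparison, as in perichondral minus hypertrophic (55 against 9). Chondrocyte markers were lower at 46 days for 12 of 12. Whether the pools of an age were related was not tested.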

Additional observations from a re-analysis of the deposited data

Results flagged for a closer look

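For the brightest probe sets, 8 differences between zones had opposite signs at 46 and at 42 days. Each rests on 1 array per zone and age, and the contrast between ages was not tested. Frzb was at 2.48 at 46 days and -0.90 at 42 days for perichondral minus reserve, at -0.77 and 3.68 for reserve minus proliferative, and at 0.92 and -0.68 for proliferative minus hypertrophic. Sfrp4 was at -1.08 and 0.99 for reserve minus proliferative and at -1.005 and 2.75 for reserve minus hypertrophic. Sfrp1 was at -0.33 and 0.43 for reserve minus proliferative. For perichondral minus reserve, Wif1 was at -0.03 and 0.12 and Dkk3 at -0.17 and 0.44. The zones have 2 arrays each, too few for a check of single outlying arrays.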

How the results depend on the processing

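No member probe set passed the threshold with limma under any of the alternatives run, whose lowest adjusted p was 0.12 (Sfrp1, perichondral minus hypertrophic, age as a replicate block). The block also left the member count at 0 in all 6 zone comparisons, while all probe sets called in it numbered 3, 13, 55, 60, 38 and 11, against 0, 0, 9, 7, 7 and 4 without the block, from perichondral minus reserve to proliferative minus hypertrophic in the order of the report. With each array left out, these counts ran from 0 to 1, 0 to 5, 0 to 50, 0 to 45, 0 to 167 and 0 to 12, and between ages from 0 to 5. Between ages 140 were called with median-centred arrays and 45 as deposited, against 0. Without a trend 0 were called in any comparison. Arrays of the compared zones alone gave 9, 0, 11, 27, 0 and 1. As deposited, the median of all probe sets shifted by over 0.1 for reserve minus proliferative (-0.18), reserve minus hypertrophic (-0.18), 46 minus 42 days (0.16) and perichondral minus reserve (0.11).

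Of 35 differences of the brightest probe sets, 22 kept their sign under all alternatives. With median-centred arrays, signs turned for Frzb in proliferative minus hypertrophic (-0.0148), Sfrp4 in reserve minus proliferative (0.12) and Wif1 in perichondral minus reserve (-0.00132). With the Gapdh ratio as a covariate, added after seeing the data, signs turned for Dkk3 in perichondral minus reserve (-0.0546), Frzb between ages (0.70), in proliferative minus hypertrophic (-2.01) and in reserve minus hypertrophic (-0.16), and Sfrp1 between ages (0.37). With each array left out, 12 turned. Perichondral minus reserve ran from -0.21 to 0.48 for Dkk3, from -1.23 (without the 46-day reserve array) to 2.76 (without the 42-day one) for Frzb and from -0.16 to 0.25 for Wif1. Reserve minus proliferative ran from -0.55 to 3.47 for Frzb, from -0.39 to 0.52 for Sfrp1 and from -0.55 to 0.48 for Sfrp4. Reserve minus hypertrophic ran from -0.44 to 3.59 for Frzb and from -0.48 to 2.23 for Sfrp4. Proliferative minus hypertrophic ran from -0.48 to 0.70 for Frzb and from -0.44 to 2.27 for Sfrp4. The age difference ran from -0.45 to 0.0031 for Sfrp1 and from -0.18 to 1.09 for Sfrp4. The cause was not tested. Of the Wnt list genes, Prickle1 was called under alternatives, in perichondral and reserve minus hypertrophic with the block, in reserve minus hypertrophic without the 42-day hypertrophic array, and between ages with median-centred arrays. Wif1 in perichondral minus hypertrophic ran from 2.73 with a pseudocount of 64 to 5.34 with 1.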

Other observations

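The genes that ran most like Frzb and Sfrp1 included some with wide zone differences of their own, named after their values were seen. Itgbl1, an integrin-like secreted protein, averaged 12.89 for the perichondral, 11.50 for the reserve, 8.98 for the proliferative and 9.004 for the hypertrophic zone. Penk, the enkephalin precursor, averaged 11.52, 10.67, 9.15 and 8.62 in the same order of zones. Tgfb2 averaged 12.47, 11.60, 11.64 and 10.33. Pdpn, a mucin-like surface protein of bone and lymphatic cells, averaged 9.64, 9.82, 8.14 and 9.56 in that order, with the proliferative mean the lowest, as for Dkk3. These genes were picked for their likeness, so their patterns are a description.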
